A study of Mus musculus with 23 samples.

Results

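The mouse testis was compared at 22.5 and at 10.5 days postpartum (dpp) across all genes, those that rose and those that fell. The comparison used 6 of the 23 samples of the series, 3 fresh (FT, not frozen) in vivo testis samples of each age, all from wild-type CD-1 mice. All 6 were poly(A) RNA from mixed germ and somatic cells, extracted from testis fragments (6 for each replicate in the series design) with no culture and no treatment, and the other samples of the series were fragments cultured from 6.5 dpp, frozen tissue or other ages. Counts per gene totalled 35959200 to 54986423 in the 10.5 dpp libraries and 31634658 to 45586557 in the 22.5 dpp libraries. The labels call the samples biological replicates but do not tie them to named animals, so the p-values measure the spread between these samples, which may be technical in part. Genes that mark cells of the testis, among them Ddx4, Gata4, Cyp11a1 and Acta2, had counts in all 6 libraries.

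In mice, the germ cells of the first wave pass together from spermatogonia, which divide by mitosis, into spermatocytes, which pair and recombine their chromosomes in meiosis, and on to round and elongating spermatids, which build the acrosome and the flagellum and compact their chromatin. Because this wave is synchronous, the age of a young testis sets which germ cells it can hold. Sertoli cells nurse the germ cells inside the tubules, peritubular myoid cells wrap the tubules, and Leydig cells between the tubules make androgens. In whole tissue, fewer cells of a type and less RNA per cell cannot be told apart, and a gene can fall in share because others rise.

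Levels below are CPM, counts scaled to a common library total after TMM scaling (trimmed mean of M values), and are not corrected for gene length. Fold changes are log2 of 22.5 over 10.5 dpp with their standard error, from edgeR's quasi-likelihood test with Benjamini-Hochberg adjustment over the 17425 genes tested. A gene is said to have risen or fallen at an adjusted p under 0.05, and to have passed the study threshold at a log2 fold change of at least 2 in size and an adjusted p of at most 0.001.

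Among the 22.5 dpp libraries, replicate 2 stood apart. Its Spearman correlation across genes with replicates 1 and 3 was 0.974 and 0.971, against 0.995 between those, and with the 10.5 dpp libraries it was 0.833 to 0.838, against 0.742 to 0.749 for replicates 1 and 3. The 10.5 dpp libraries correlated at 0.996 to 0.998 with each other. Of the genes that rose at the study threshold, 90.6% had their lowest 22.5 dpp value in replicate 2, and of those that fell, 79.1% had their highest there. Its place was therefore nearer to the 10.5 dpp libraries in both directions, so it is named beside the results that it touches.

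At the study threshold 2789 genes (16% of those tested) were higher and 602 (3.45%) were lower at 22.5 dpp. At an adjusted p under 0.05, 6588 (37.8%) rose and 6494 (37.3%) fell, and the median over all genes tested was a log2 fold change of -0.01. Counts for the gene lists below are to be set against these shares, and no such difference was tested. The CPM ranges of the groups did not overlap in 80.3% of the genes tested. The rises were also larger than the falls, with a median of 4.76 among the genes past the study threshold against -2.51 for the falls. A log2 fold change of at least 5 was reached by 1310 genes that rose and, in the other direction, by 14. Of the 2789 genes, 566 had no more than 3 counts in any 10.5 dpp library and 135 had none, whereas 32 of the 602 that fell had no more than 3 counts in any 22.5 dpp library and 0 had none. The genes that rose past the study threshold held 2.41%, 2.47% and 2.43% of all counts at 10.5 dpp and 29.0%, 19.4% and 28.8% at 22.5 dpp, lowest in replicate 2. Those that fell held 3.16%, 2.97% and 3.23% and then 0.380%, 0.641% and 0.388%. Scaling by library size alone moved the median of all genes to -0.32 and gave 2573 higher and 1069 lower genes at the study threshold, 70.6% of the calls higher against 82.2% with TMM. Without 22.5 dpp replicate 2, 3474 were higher and 989 lower.

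**Figure D1:**
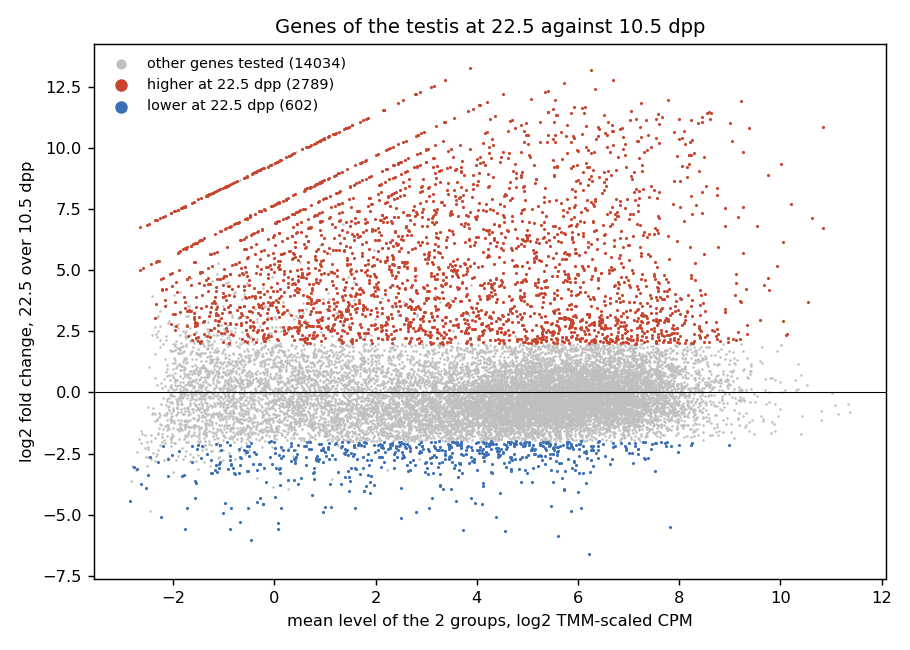
Mean level of both groups (log2 TMM-scaled CPM) against the log2 fold change of 22.5 over 10.5 dpp, 1 point per gene tested, with the 2789 genes higher and the 602 lower at the study threshold in colour. Rises reach 13.27 on the log2 scale whereas the largest fall is -6.63, and the slanted rows of points at the upper left are genes with 0 or few counts at 10.5 dpp, whose fitted fold depends on the prior count.

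A ladder of marker genes, ordered by the germ cell stage in which each is known to appear, fell at its early rungs and rose at its late ones. Zbtb16, a transcription factor of undifferentiated spermatogonia, had 91.2, 66.8 and 91.1 CPM at 10.5 dpp and 20.6, 39.2 and 16.8 CPM at 22.5 dpp (-1.70 ± 0.31, edgeR adjusted p = 0.0014). Gfra1, the receptor through which GDNF keeps stem spermatogonia, had 28.8, 24.8 and 30.3 CPM at 10.5 dpp and 7.93, 8.85 and 7.85 CPM at 22.5 dpp (-1.77 ± 0.14, edgeR adjusted p = 2.1e-05). Kit, the receptor of differentiating spermatogonia, had 167, 178 and 173 CPM at 10.5 dpp and 54.4, 92.2 and 53.3 CPM at 22.5 dpp (-1.37 ± 0.22, edgeR adjusted p = 0.00063). Sohlh1, a factor of spermatogonial differentiation, fell by a larger amount (-2.22 ± 0.17, edgeR adjusted p = 1.6e-05). In each of these spermatogonial genes the groups did not overlap, and 22.5 dpp replicate 2 was the highest of its group.

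The genes of leptotene and zygotene spermatocytes differed among themselves. Stra8, which drives entry into meiosis, had 148, 146 and 138 CPM at 10.5 dpp and 46.5, 53.1 and 53.2 CPM at 22.5 dpp and fell (-1.50 ± 0.11, edgeR adjusted p = 1.3e-05). Prdm9, which marks the sites of recombination, had 18.7, 22.8 and 17.7 CPM at 10.5 dpp and 23.3, 22.2 and 21.4 CPM at 22.5 dpp, groups that overlapped (0.18 ± 0.14, edgeR adjusted p = 0.27). Dmc1, the meiotic strand-exchange protein, had 29.3, 36.8 and 28.9 CPM at 10.5 dpp and 58.0, 63.3 and 52.0 CPM at 22.5 dpp (0.87 ± 0.14, edgeR adjusted p = 0.00073). Meiob, which binds single-stranded DNA in meiosis, rose the most of this stage, from 4.93, 6.53 and 3.95 CPM to 85.3, 93.8 and 80.9 CPM (4.08 ± 0.20, edgeR adjusted p = 2.2e-06). These 4 genes thus ranged from a fall to a rise, and in none of them did replicate 2 stand far from the other 22.5 dpp libraries.

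The genes of pachytene and diplotene spermatocytes were higher in every 22.5 dpp library. Piwil1, the PIWI protein of the pachytene stage, had 6.35, 6.16 and 6.75 CPM at 10.5 dpp and 1274, 1013 and 1390 CPM at 22.5 dpp (7.58 ± 0.19, edgeR adjusted p = 7.4e-07). Mybl1, the transcription factor known to switch on pachytene genes, had 21.4, 18.3 and 16 CPM at 10.5 dpp and 187, 152 and 122 CPM at 22.5 dpp (3.05 ± 0.20, edgeR adjusted p = 6.9e-06). Ldhc, the testis lactate dehydrogenase, had 2.03, 1.61 and 2.17 CPM at 10.5 dpp and 4705, 2085 and 4252 CPM at 22.5 dpp (10.88 ± 0.43, edgeR adjusted p = 1.4e-06). Ldhc had the largest gain of mean CPM of all genes tested, and replicate 2 was the lowest for it and for Pgk2 (144 CPM against 384 and 338 CPM).

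The genes of round spermatids rose as well, with a wide gap inside the 22.5 dpp group. Acrv1, an acrosomal matrix protein, had 0.0406, 0.0742 and 0.132 CPM at 10.5 dpp and 32.3, 6.44 and 32.1 CPM at 22.5 dpp (8.06 ± 0.82, edgeR adjusted p = 6.7e-05). Acr, the acrosomal protease acrosin, had 0.101, 0.198 and 0.148 CPM at 10.5 dpp and 190.1, 79.6 and 171 CPM at 22.5 dpp (9.94 ± 0.49, edgeR adjusted p = 2.1e-06). Spaca1 reached 41.2, 15.0 and 47.6 CPM from at most 2.77 CPM (3.82 ± 0.43, edgeR adjusted p = 0.00012), and Tssk2, a spermatid kinase, 23.4, 3.99 and 35.6 CPM (5.13 ± 0.76, edgeR adjusted p = 0.00048). No value of the 4 genes at 22.5 dpp came down to the 10.5 dpp range, but replicate 2 was the lowest in each. Without 22.5 dpp replicate 3, Tssk2 had a log2 fold change of 4.51.

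Of the elongating spermatid genes, those for nuclear proteins were low and uneven between libraries. Prm1, a protamine that replaces histones in the sperm head, had 0.730, 0.0989 and 0.839 CPM at 10.5 dpp and 4.35, 0.312 and 4.98 CPM at 22.5 dpp (2.47 ± 0.96, edgeR adjusted p = 0.045). Prm2 had 0.811, 0.0742 and 1.48 CPM at 10.5 dpp and 7.28, 0.557 and 8.94 CPM at 22.5 dpp (2.77 ± 1.05, edgeR adjusted p = 0.041), and the transition protein gene Tnp1 had 0.994, 0.445 and 1.04 CPM at 10.5 dpp and 8.71, 0.490 and 14.0 CPM at 22.5 dpp (3.20 ± 0.97, edgeR adjusted p = 0.017). For these 3 genes 22.5 dpp replicate 2 lay inside the range of the 10.5 dpp libraries, so the groups overlapped and the rise rested on replicates 1 and 3. Prm1 was no longer called when any library but 22.5 dpp replicate 2 was left out (1.99 to 2.88), or with library size in place of TMM (2.12), nor Prm2 without 10.5 dpp replicate 1 (2.76), 10.5 dpp replicate 2 (2.24), 22.5 dpp replicate 1 (2.53) or 22.5 dpp replicate 3 (2.26), nor Tnp1 without 10.5 dpp replicate 2 (2.89) or 22.5 dpp replicate 3 (2.45). Without 10.5 dpp replicate 3, Prm2 had a log2 fold change of 3.58. The 10.5 dpp libraries also differed among themselves for Prm1 and Prm2, with replicate 2 lowest. Tnp2 did not overlap, at 0.487, 0.124 and 0.560 CPM at 10.5 dpp and 6.34, 1.45 and 8.98 CPM at 22.5 dpp (3.78 ± 0.74, edgeR adjusted p = 0.002). The flagellar genes of this stage were higher, as Akap4, the main anchoring protein of the fibrous sheath, had 0.690, 0.222 and 0.724 CPM at 10.5 dpp and 97.9, 14.8 and 95.5 CPM at 22.5 dpp (6.93 ± 0.84, edgeR adjusted p = 0.00016). Odf1 of the outer dense fibres reached 49.9, 9.05 and 60.5 CPM (6.31 ± 0.78, edgeR adjusted p = 0.00018), Smcp of the sperm mitochondria 43.3, 6.46 and 46.8 CPM (7.45 ± 0.94, edgeR adjusted p = 0.0002) and the sperm glycolytic enzyme Gapdhs 41.2, 7.02 and 45.0 CPM (3.95 ± 0.65, edgeR adjusted p = 0.00082). Each of these was several times lower in replicate 2 than in replicates 1 and 3.

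**Figure D2:**
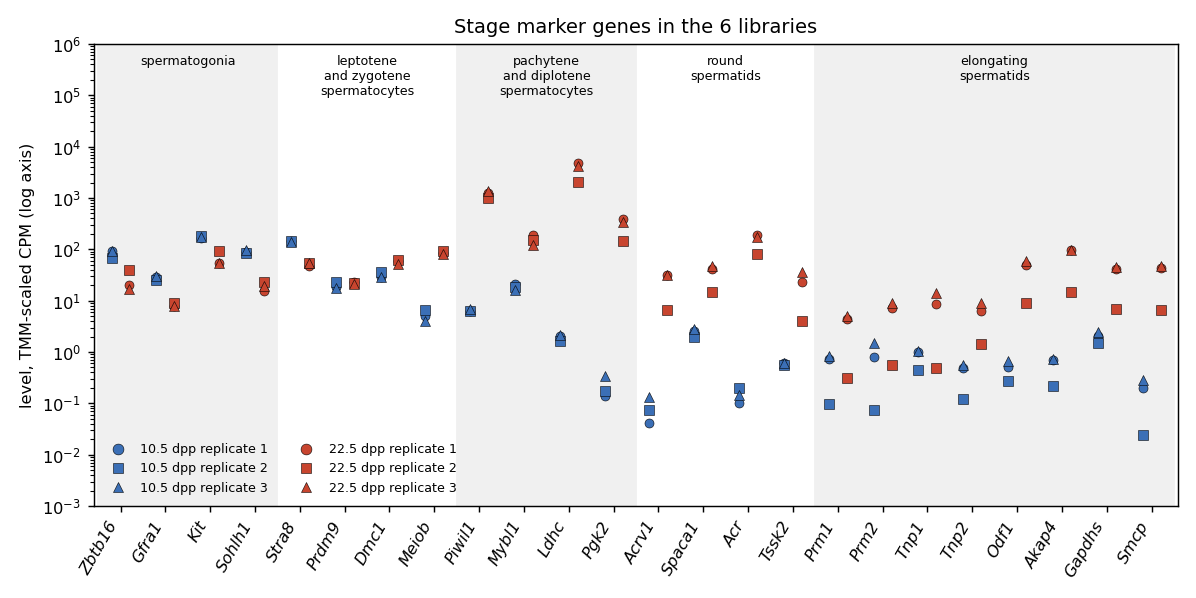
Level of each stage marker gene in the 6 libraries (TMM-scaled CPM, log axis), 10.5 dpp in blue and 22.5 dpp in red, with a symbol for each replicate number. The spermatogonial genes lie lower at 22.5 dpp, the pachytene genes far higher, and replicate 2 of 22.5 dpp (red squares) lies well below the other red points for Ldhc and Pgk2 and for every round and elongating spermatid gene.

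By list, the place of 22.5 dpp replicate 2 in its group ran from above to below the other libraries. The median over members of its CPM divided by the mean of replicates 1 and 3 was 1.61 for the stem cell list, 1.01 for the synaptonemal complex list, 1.05 for the recombination list, 0.734 for the meiotic division list, 0.596 for the transcription regulators, 0.790 for the PIWI list, 0.558 for the axoneme list, 0.456 for the acrosome list and 0.210 for the fibrous sheath list. The somatic lists lay between 1.12 (Leydig) and 1.55 (imprinted growth genes), except for the erythroid list at 0.890. What set this library apart was not tested.

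Among 21 genes of spermatogonial stem cells and progenitors, 15 (71.4%) fell and 1 (4.76%) rose, with a median log2 fold change of -1.63. Of all genes tested 37.3% fell and 37.8% rose. Lhx1, a stem cell transcription factor, fell by the most in the list, from 5.25, 4.05 and 6.12 CPM to 0.373, 0.825 and 0.581 CPM (-3.09 ± 0.33, edgeR adjusted p = 8.4e-05). Ret, the partner of Gfra1 in the GDNF receptor, had 50.9, 42.1 and 55.9 CPM at 10.5 dpp and 9.17, 17.0 and 9.96 CPM at 22.5 dpp (-2.04 ± 0.25, edgeR adjusted p = 0.00018), and Lin28a, an RNA-binding protein of progenitors, fell to a similar degree (-1.92 ± 0.22, edgeR adjusted p = 0.00012). Id4, an inhibitor of DNA binding that also marks stem spermatogonia, went the other way, with 9.45, 8.01 and 7.01 CPM at 10.5 dpp and 80.6, 78.1 and 89.9 CPM at 22.5 dpp (3.35 ± 0.15, edgeR adjusted p = 1.7e-06). Its 3 values at 22.5 dpp lay close together, replicate 2 included.

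Of 16 genes of differentiating spermatogonia and meiotic entry, 10 (62.5%) fell and 3 (18.8%) rose, against 37.3% and 37.8% of all genes tested (median -1.24). The X-linked homeobox gene Rhox13 fell furthest, from 25.5, 31.6 and 27.4 CPM to 1.49, 1.16 and 1.64 CPM (-4.31 ± 0.20, edgeR adjusted p = 1.7e-06). Dnmt3b, a DNA methyltransferase, also fell (-1.84 ± 0.16, edgeR adjusted p = 2.8e-05). The members that rose were Dmrtb1 (2.84 ± 0.21, edgeR adjusted p = 1.4e-05), Meioc (2.42 ± 0.20, edgeR adjusted p = 2.3e-05) and Ythdc2 (1.23 ± 0.16, edgeR adjusted p = 0.00025). Meioc and Ythdc2 act together on RNA in meiotic prophase. Dmrtb1 had 69.1, 70.4 and 63.1 CPM at 10.5 dpp and 535, 337 and 575 CPM at 22.5 dpp, and its values at 22.5 dpp were all above those of 10.5 dpp.

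The structural genes of meiotic chromosomes mostly rose. Of 14 synaptonemal complex and axis genes 11 rose, 5 of them past the study threshold, and 1 fell, with a median of 1.82. Sycp2, of the lateral elements, had 89.7, 99.2 and 77.1 CPM at 10.5 dpp and 1002, 826 and 774 CPM at 22.5 dpp (3.29 ± 0.16, edgeR adjusted p = 2.1e-06), and its partner Sycp3 had 51.2, 53.9 and 46.2 CPM at 10.5 dpp and 207, 204 and 197 CPM at 22.5 dpp (2.01 ± 0.11, edgeR adjusted p = 3.4e-06). Hormad1 (3.02 ± 0.18, edgeR adjusted p = 4.8e-06) and Hormad2 (1.94 ± 0.14, edgeR adjusted p = 1.1e-05), which mark unpaired axes, rose together. The member that fell was Smc3 (-0.78 ± 0.12, edgeR adjusted p = 0.00055), a cohesin subunit of mitotic and meiotic cells alike, whereas the meiotic cohesin gene Smc1b rose (0.73 ± 0.14, edgeR adjusted p = 0.0017).

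Of 28 recombination genes 19 (67.9%) rose and 6 (21.4%) fell, against 37.8% and 37.3% of all genes tested (median 0.98). Spo11, the enzyme that makes the DNA breaks of meiosis, had 3.43, 3.96 and 3.37 CPM at 10.5 dpp and 145, 103 and 145 CPM at 22.5 dpp (5.19 ± 0.19, edgeR adjusted p = 1.3e-06), the largest rise of the list. Msh4 (3.30 ± 0.18, edgeR adjusted p = 2.9e-06), a stabiliser of crossover intermediates, and Mcmdc2 (3.66 ± 0.20, edgeR adjusted p = 3.6e-06), needed for repair of the breaks, rose too. The fallers included 2 partners of Spo11 in break formation, Rec114, with 8.52, 10.4 and 10.1 CPM at 10.5 dpp and 2.58, 3.61 and 3.71 CPM at 22.5 dpp (-1.55 ± 0.21, edgeR adjusted p = 0.00027), and Mei4 (-1.53 ± 0.21, edgeR adjusted p = 0.00032). Mei1 (-0.51 ± 0.12, edgeR adjusted p = 0.0051), Trip13 (-1.05 ± 0.15, edgeR adjusted p = 0.00034) and the X-linked crossover gene Tex11 (-1.02 ± 0.15, edgeR adjusted p = 0.00048) fell as well. Break formation genes therefore lay at both ends of the list.

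Genes of the meiotic divisions rose in 11 of 13 cases (median 1.86). Ccna1, the cyclin A of spermatocytes, had 1.91, 2.25 and 1.86 CPM at 10.5 dpp and 162, 78.5 and 194 CPM at 22.5 dpp (6.18 ± 0.38, edgeR adjusted p = 5.5e-06), Meikin, a meiotic kinetochore protein, 0.345, 0.470 and 0.329 CPM at 10.5 dpp and 36.4, 25.7 and 32.1 CPM at 22.5 dpp (6.37 ± 0.24, edgeR adjusted p = 1.3e-06), and the chaperone Hspa2 50.7, 54.0 and 52.0 CPM at 10.5 dpp and 1905, 1451 and 2370 CPM at 22.5 dpp (5.19 ± 0.21, edgeR adjusted p = 1.5e-06). For Hspa2 and Meikin replicate 2 was lowest but within a factor of 2 of the others. Psma8, the proteasome subunit of spermatocytes, rose with little spread, to 425, 361 and 409 CPM (4.79 ± 0.14, edgeR adjusted p = 9.9e-07). Ccnb1, the mitotic cyclin B, was the member that fell (-0.46 ± 0.15, edgeR adjusted p = 0.02), a call lost without 10.5 dpp replicate 1 (-0.47), 10.5 dpp replicate 3 (-0.47) or 22.5 dpp replicate 3 (-0.42).

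Of 20 replication genes, 6 (30%) rose and 10 (50%) fell, against 37.8% and 37.3% of all genes tested, with none past the study threshold (median -0.36). Tyms, which makes thymidylate, fell furthest (-1.92 ± 0.15, edgeR adjusted p = 2.1e-05), followed among those with the smallest p by the helicase subunits Mcm2 (-1.66 ± 0.18, edgeR adjusted p = 9.2e-05), Mcm6 (-1.20 ± 0.13, edgeR adjusted p = 9.3e-05) and Mcm4 (-1.38 ± 0.17, edgeR adjusted p = 0.00016). The risers were small, among them Gins1 (1.19 ± 0.19, edgeR adjusted p = 0.00067), Gins2 (0.64 ± 0.14, edgeR adjusted p = 0.0038), Ccne2 (0.93 ± 0.19, edgeR adjusted p = 0.0028), Top2a (0.48 ± 0.11, edgeR adjusted p = 0.0045), Pcna (0.39 ± 0.11, edgeR adjusted p = 0.013) and Mcm7 (0.49 ± 0.19, edgeR adjusted p = 0.041). For Mcm7 the groups overlapped, since replicate 2 of 22.5 dpp had 142 CPM and the 10.5 dpp libraries 138, 142 and 146 CPM. With library size in place of TMM, Gins2 (0.33), Top2a (0.18), Pcna (0.08) and Mcm7 (0.17) were not called. The Mcm7 call was also lost when any library but 22.5 dpp replicate 2 was left out (0.37 to 0.49) and the Pcna call without any of the 10.5 dpp libraries (0.35 to 0.38).

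Transcription regulators of spermatocytes and spermatids rose in 11 of 13 cases, 10 past the study threshold (median 3.86). Gtf2a1l, a germ cell form of the general factor TFIIA, had 0.122, 0.124 and 0.115 CPM at 10.5 dpp and 246, 109 and 259 CPM at 22.5 dpp (10.70 ± 0.50, edgeR adjusted p = 1.8e-06). Kctd19, a meiotic partner of the zinc finger protein Zfp541, had 0.811, 1.14 and 0.774 CPM at 10.5 dpp and 873, 492 and 781 CPM at 22.5 dpp (9.64 ± 0.33, edgeR adjusted p = 1.1e-06). Rfx2, the regulator of cilium genes in spermatids, had 8.91, 9.34 and 7.98 CPM at 10.5 dpp and 411, 241 and 426 CPM at 22.5 dpp (5.36 ± 0.26, edgeR adjusted p = 2e-06), and Brdt, the testis bromodomain protein, reached 414, 315 and 367 CPM (4.29 ± 0.15, edgeR adjusted p = 1.2e-06). In Rfx2 and Kctd19, as in Gtf2a1l, replicate 2 was the lowest 22.5 dpp library and still far above 10.5 dpp. The 2 members that fell were Taf7 (-0.40 ± 0.11, edgeR adjusted p = 0.011), a subunit of the general factor TFIID, and its X-linked relative Taf7l (-0.97 ± 0.13, edgeR adjusted p = 0.00025).

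The promoters of the genes that rose were searched for the letters known to be bound by 3 of these regulator families, since MYBL1, RFX2 and CREM are all in the list. RefSeq windows of 250 bases before to 50 after each start (GRCm38.p6) were searched on both strands for the MYB site GGCNGTT, the RFX element GTTGCCAT and the cAMP response element TGACGTCA, the first pair of which can share the letters GTT, so that the same bases can count for both. GGCNGTT was in 12.1% of all 32851 windows, in 19.4% of the 2648 windows of genes higher at the study threshold, in 10.1% of the 534 windows of genes lower, and in 12.5% of the 14031 windows of genes tested and called neither way. GTTGCCAT was in 1.35% of all windows, in 3.44% of those of genes higher, in 0.187% of those of genes lower and in 0.991% of those called neither way. TGACGTCA was in 1.79%, 2.23%, 1.69% and 2.85% in the same order. The median GC content was 52.7% over all windows, 54.3% for genes higher, and 60.0% both for genes lower and for genes called neither way, and no test was made. A match is only a run of letters, and binding was not measured.

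Of 118 germ cell list genes past the study threshold, 97 had a window, 29 of them with the MYB site. The RFX element was in 3 of the 97 genes and the cAMP response element in 1. These are counts of genes, and a gene can have several windows, so they cannot be set against the shares of windows above. The windows below show some of the matches, all from genes whose levels are given here. Those with the MYB site are from PIWI and piRNA genes, the chaperone gene Hspa2 and the chromosome gene Sycp2. Those with the RFX element are from flagellum genes, and the last window is from the gene with the cAMP response element. Each window is written 5′ to 3′ on the gene's strand, before the start of transcription, with a single match in capitals, read on either strand, and any further match in lower case.
Piwil1 (chr5:128736145-128736203, + strand): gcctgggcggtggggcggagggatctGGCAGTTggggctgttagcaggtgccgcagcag
Tdrd1 (chr19:56830564-56830622, + strand): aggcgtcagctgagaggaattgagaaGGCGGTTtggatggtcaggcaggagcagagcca
Mael (chr1:166238809-166238867, - strand): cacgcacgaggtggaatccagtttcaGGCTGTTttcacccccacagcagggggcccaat
Hspa2 (chr12:76404170-76404228, + strand): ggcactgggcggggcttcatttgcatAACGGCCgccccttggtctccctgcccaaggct
Sycp2 (chr2:178407708-178407766, - strand): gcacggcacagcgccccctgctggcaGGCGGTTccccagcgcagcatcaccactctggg
Tekt1 (chr11:72361883-72361923, - strand): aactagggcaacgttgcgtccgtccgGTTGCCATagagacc
Cfap44 (chr16:44394752-44394798, + strand): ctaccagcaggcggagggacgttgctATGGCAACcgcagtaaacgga
Spag6l (chr16:16829364-16829398, - strand): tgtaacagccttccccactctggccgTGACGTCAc

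PIWI and piRNA factors, which make and use the small RNAs that guard germ cells against transposons, rose in 16 of 17 cases, 9 past the study threshold (median 2.29). Beside Piwil1, Tdrd6 had 0.872, 0.593 and 1.02 CPM at 10.5 dpp and 1350, 647 and 1180 CPM at 22.5 dpp (10.29 ± 0.41, edgeR adjusted p = 1.4e-06). Tdrd1 had 118, 108 and 121 CPM at 10.5 dpp and 602, 539 and 562 CPM at 22.5 dpp (2.29 ± 0.12, edgeR adjusted p = 2.3e-06), Tdrd5 reached 397, 294 and 347 CPM (2.95 ± 0.15, edgeR adjusted p = 2.7e-06) and Mael 1451, 785 and 1150 CPM (2.78 ± 0.22, edgeR adjusted p = 2.1e-05). The germ cell helicase Ddx4, often used as a marker of all germ cells, had 253, 238 and 230.4 CPM at 10.5 dpp and 1116, 852 and 886 CPM at 22.5 dpp (1.98 ± 0.14, edgeR adjusted p = 1.2e-05). The member that fell was Piwil4 (-1.41 ± 0.27, edgeR adjusted p = 0.0019), the PIWI protein of fetal and early spermatogonia, with 10.9, 8.75 and 12.1 CPM at 10.5 dpp and 3.17, 5.59 and 3.13 CPM at 22.5 dpp. The 3 PIWI genes thus moved by unlike amounts, since Piwil2 rose by 1.15 ± 0.13 on the log2 scale.

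RNA-binding proteins of germ cells rose in 8 of 15 cases (53.3%) and fell in 3 (median 0.51). Of all genes tested 37.8% rose and 37.3% fell, and the difference from these shares was not tested. Ybx2, which stores messages in spermatids, had 12.8, 14.5 and 11.7 CPM at 10.5 dpp and 1578, 1073 and 1765 CPM at 22.5 dpp (6.82 ± 0.25, edgeR adjusted p = 1.3e-06), and Ybx3 had 76.0, 75.0 and 74.0 CPM at 10.5 dpp and 1784, 1009 and 1917 CPM at 22.5 dpp (4.39 ± 0.26, edgeR adjusted p = 4.7e-06). Boll (3.73 ± 0.15, edgeR adjusted p = 1.5e-06), of the DAZ family, and the poly(A)-binding protein gene Pabpc6 (9.06 ± 0.35, edgeR adjusted p = 1.3e-06) rose as well. The fallers were Nanos1 (-1.59 ± 0.21, edgeR adjusted p = 0.00028) and Dnd1 (-1.26 ± 0.13, edgeR adjusted p = 7.6e-05), which act in early germ cells, and Tsn (-0.55 ± 0.11, edgeR adjusted p = 0.0024).

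Most chromatin genes of spermatids had low levels in these libraries. The libraries were of poly(A) RNA, so messages without a poly(A) tail would be undercounted, and this was not tested for the histone genes. Of 13 testis histone, transition protein and protamine genes 9 were tested, of which 8 rose and 0 fell (median 2.77). H1f6, the linker histone of spermatocytes, went from 0.0811, 0.124 and 0.0823 CPM to 1.49, 1.07 and 1.74 CPM (3.88 ± 0.35, edgeR adjusted p = 3.8e-05), H2bc1 from 0.345, 0.371 and 0.428 CPM to 1.15, 1.63 and 2.36 CPM (2.15 ± 0.33, edgeR adjusted p = 0.00054) and H2ac1 from 0.0811, 0.0494 and 0.0988 CPM to 0.715, 0.334 and 1.20 CPM (3.16 ± 0.57, edgeR adjusted p = 0.0013). H1f7, H2al2a and Prm3 did not pass the filter on low counts. H1f7, the linker histone of spermatids, had 0.0609, 0 and 0.115 CPM at 10.5 dpp and 12.7, 0.178 and 13.1 CPM at 22.5 dpp, so that only replicates 1 and 3 held it at a level.

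All 19 acrosome genes rose, 16 past the study threshold, with the highest median of the lists, 8.06. Crisp2, a secreted protein of the acrosome and flagellum, had 0.669, 0.519 and 0.971 CPM at 10.5 dpp and 1672, 772 and 1534 CPM at 22.5 dpp (10.81 ± 0.46, edgeR adjusted p = 1.5e-06). Dkkl1 had 2.35, 2.30 and 2.12 CPM at 10.5 dpp and 774, 355 and 678 CPM at 22.5 dpp (8.06 ± 0.36, edgeR adjusted p = 1.7e-06) and Spesp1, a protein of the equatorial segment, 0.893, 0.865 and 0.856 CPM at 10.5 dpp and 330.5, 184 and 329 CPM at 22.5 dpp (8.33 ± 0.31, edgeR adjusted p = 1.3e-06). Zpbp, which binds the zona pellucida, rose less (5.55 ± 0.25, edgeR adjusted p = 1.7e-06). The members below the study threshold were Pick1 (1.21 ± 0.15, edgeR adjusted p = 0.00019) and Gopc (1.02 ± 0.13, edgeR adjusted p = 0.00018), which sort vesicles in many cells, and Izumo1 (2.56 ± 0.47, edgeR adjusted p = 0.0014), needed for fusion with the egg, whose 22.5 dpp values were 18, 4.55 and 16 CPM.

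All 26 axoneme and flagellum genes rose, 25 past the study threshold (median 6.85). Spag17, of the central pair of microtubules, had 0.203, 0.272 and 0.329 CPM at 10.5 dpp and 498, 250.2 and 371 CPM at 22.5 dpp (10.41 ± 0.38, edgeR adjusted p = 1.3e-06), and Spag6l of the same structure had 0.548, 0.420 and 0.444 CPM at 10.5 dpp and 679, 325 and 649.8 CPM at 22.5 dpp (10.18 ± 0.41, edgeR adjusted p = 1.4e-06). The motor protein genes Dnah17 (8.46 ± 0.32, edgeR adjusted p = 1.3e-06) and Dnah8 (6.72 ± 0.24, edgeR adjusted p = 1.2e-06) and the radial spoke gene Rsph1 (7.71 ± 0.35, edgeR adjusted p = 1.7e-06) rose with them. Dnah8 reached 4541, 3215 and 3211 CPM and Rsph1 2410, 1553 and 3089 CPM, among the largest gains in CPM. Tekt1, a tektin of the microtubule walls, had 0.669, 0.519 and 0.642 CPM at 10.5 dpp and 307, 152 and 339 CPM at 22.5 dpp (8.75 ± 0.40, edgeR adjusted p = 1.7e-06), and Cfap44 reached 161, 82.2 and 125 CPM (6.81 ± 0.32, edgeR adjusted p = 1.8e-06). Ift20, used in cilia of many cells, was below the study threshold (0.98 ± 0.13, edgeR adjusted p = 0.00026).

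Fibrous sheath and outer dense fibre genes rose in 12 of 12 cases, all past the study threshold (median 7.15). Odf4 had 0.122, 0.0742 and 0.0988 CPM at 10.5 dpp and 236, 128 and 248 CPM at 22.5 dpp (10.96 ± 0.41, edgeR adjusted p = 1.3e-06), Gsto2 6.03, 7.93 and 5.93 CPM at 10.5 dpp and 184, 101 and 199 CPM at 22.5 dpp (4.61 ± 0.29, edgeR adjusted p = 6.7e-06) and Spata18 0.203, 0.173 and 0.263 CPM at 10.5 dpp and 16, 6.93 and 15.8 CPM at 22.5 dpp (5.88 ± 0.43, edgeR adjusted p = 1.3e-05). Odf2, which also sits on centrioles in other cells, started higher, at 87.3, 89.5 and 95.7 CPM, and reached 1843, 963 and 2182 CPM (4.19 ± 0.31, edgeR adjusted p = 1.3e-05). Of 7 testis kinases and phosphatases 4 (57.1%) rose and 1 (14.3%) fell, against 37.8% and 37.3% of all genes tested. The genes that rose were all of the TSSK family, Tssk2 (above), Tssk4 (4.91 ± 0.58, edgeR adjusted p = 0.00014), Tssk1 (4.44 ± 0.57, edgeR adjusted p = 0.00023) and Tssk3 (4.04 ± 0.56, edgeR adjusted p = 0.00032), while Tssk6 was not called (0.24 ± 0.28, edgeR adjusted p = 0.44). Camk4, a calmodulin kinase, fell (-0.86 ± 0.22, edgeR adjusted p = 0.007). Every TSSK gene that rose was lowest in replicate 2 of its group.

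Several enzymes of energy metabolism have a form known from germ cells. Of 17 genes listed for such forms 16 rose, 14 past the study threshold (median 4.41). Beside Ldhc, Pdha2, of pyruvate dehydrogenase, had 8.48, 7.79 and 7.85 CPM at 10.5 dpp and 288, 202 and 294 CPM at 22.5 dpp (5.02 ± 0.19, edgeR adjusted p = 1.3e-06), and the testis cytochrome c gene Cyct had 6.45, 6.16 and 5.70 CPM at 10.5 dpp and 113, 88.0 and 129 CPM at 22.5 dpp (4.17 ± 0.18, edgeR adjusted p = 1.6e-06). Cox8c, a subunit of cytochrome c oxidase, had 1.91, 2.42 and 2.34 CPM at 10.5 dpp and 475, 300.5 and 631 CPM at 22.5 dpp (7.72 ± 0.34, edgeR adjusted p = 1.7e-06). The list also holds Hk1, whose testis form is a transcript that counts per gene cannot separate from the general one, and Pgam2, which is known from muscle as well. Pgam2 reached 637, 240.2 and 664 CPM (8.64 ± 0.50, edgeR adjusted p = 4.1e-06). Slc25a31, the germ cell ADP/ATP carrier, was the member not called, with 27.5, 28.8 and 27.6 CPM at 10.5 dpp and 31.1, 36.3 and 33.8 CPM at 22.5 dpp (0.27 ± 0.11, edgeR adjusted p = 0.056). It was called without 22.5 dpp replicate 1 (0.33), with DESeq2 (0.32), with RLE factors (0.34) and with a minimum of 1 CPM in 3 libraries (0.31), and lay at -0.03 with library size in place of TMM.

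Of the 16 general glycolytic enzymes, by contrast, 11 (68.8%) fell and 4 (25.0%) rose (median -0.76). Of all genes tested 37.3% fell and 37.8% rose, and the difference between the lists was not tested. Gpi1 had 183, 187 and 203 CPM at 10.5 dpp and 79.2, 91.9 and 81.5 CPM at 22.5 dpp (-1.18 ± 0.11, edgeR adjusted p = 4.9e-05), Aldoa had 416, 463 and 454 CPM at 10.5 dpp and 258, 247 and 270.5 CPM at 22.5 dpp (-0.78 ± 0.11, edgeR adjusted p = 0.00033), and Aldoc (-1.09 ± 0.14, edgeR adjusted p = 0.0002) and Ldhb (-0.96 ± 0.14, edgeR adjusted p = 0.00044) fell with them. The risers were the phosphofructokinase genes Pfkp (4.63 ± 0.30, edgeR adjusted p = 7.3e-06) and Pfkm (1.70 ± 0.21, edgeR adjusted p = 0.00019), Ldha (3.40 ± 0.29, edgeR adjusted p = 3e-05) and Tpi1 (0.50 ± 0.18, edgeR adjusted p = 0.03). Pfkp had 12.2, 9.91 and 13.1 CPM at 10.5 dpp and 359, 177 and 335 CPM at 22.5 dpp and Ldha had 73.3, 93.2 and 82.1 CPM at 10.5 dpp and 1009, 513 and 1103 CPM at 22.5 dpp, each lowest in replicate 2 among the 22.5 dpp libraries. Tpi1 overlapped between the groups and was not called when any library but 22.5 dpp replicate 2 was left out (0.33 to 0.54) or with library size in place of TMM (0.19). The gene for the glucose transporter GLUT3, Slc2a3, was in no list and was among the largest gains in CPM, from 23.5, 22.7 and 21.1 CPM to 3766, 2116 and 3522 CPM (7.13 ± 0.28, edgeR adjusted p = 1.3e-06).

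**Figure D3:**
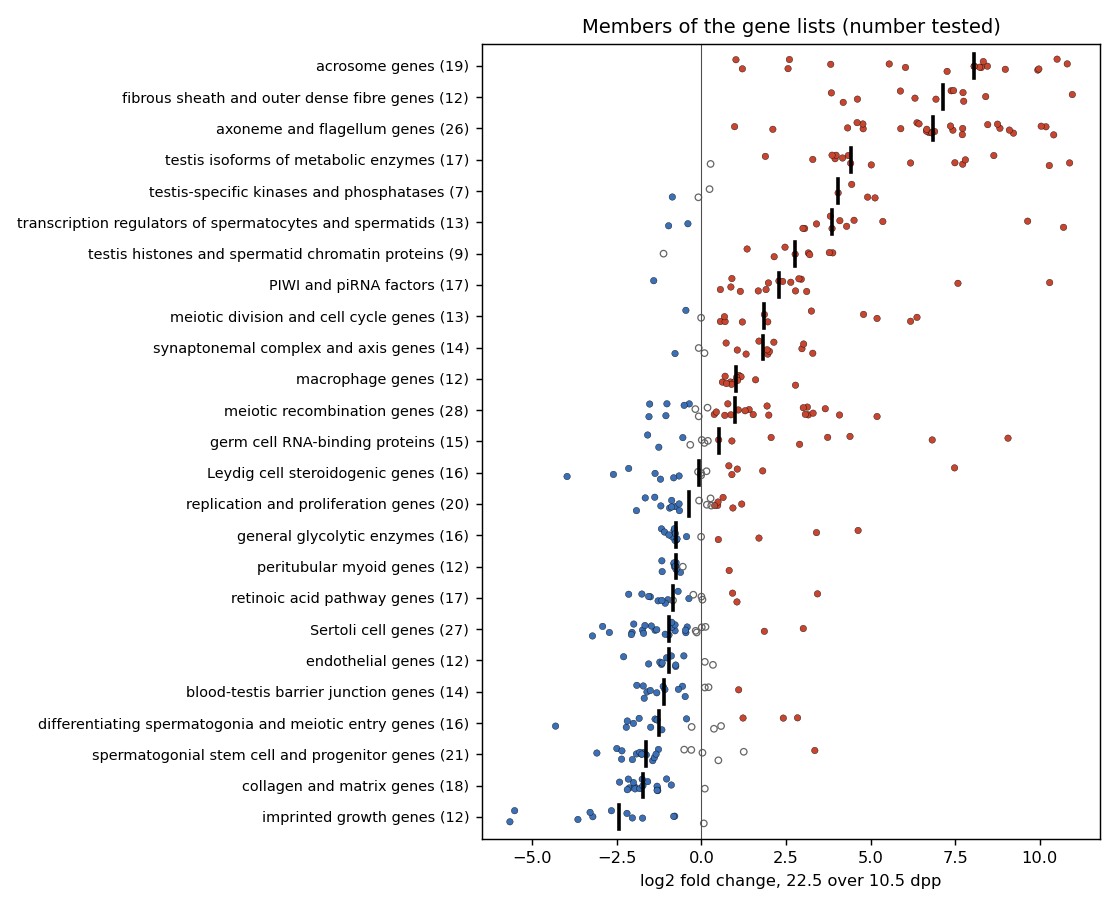
Log2 fold change of 22.5 over 10.5 dpp for each member of the gene lists with at least 7 members tested, filled red where the gene rose and blue where it fell at an adjusted p under 0.05, open where not called, with the list's median as a black bar. The acrosome, fibrous sheath and axoneme lists lie wholly to the right, the macrophage list lies to the right near 1, and the imprinted and matrix lists lie almost wholly to the left.

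Several X-linked genes used in every cell have an autosomal copy that is known to be made in spermatocytes, when the X chromosome is silenced together with the Y in the sex body. In 11 such pairs all 11 X-linked genes fell, and 10 of the copies rose, 7 past the study threshold. Of all X-linked genes tested 66.9% fell, so falls were common on this chromosome outside the pairs too. Of all autosomal genes tested 38.7% rose, 16.3% past the study threshold. The differences from these shares were not tested. Gk, glycerol kinase, had 6.94, 7.22 and 5.93 CPM at 10.5 dpp and 3.76, 4.35 and 2.94 CPM at 22.5 dpp (-0.86 ± 0.21, edgeR adjusted p = 0.0059), and its copy Gk2 had 0.325, 0.222 and 0.230 CPM at 10.5 dpp and 781, 317 and 702 CPM at 22.5 dpp (11.16 ± 0.50, edgeR adjusted p = 1.7e-06). Cetn2, a centrin, had 46.2, 45.8 and 46.2 CPM at 10.5 dpp and 17.5, 20.7 and 16.1 CPM at 22.5 dpp (-1.35 ± 0.13, edgeR adjusted p = 4.9e-05), and Cetn1 had 0.629, 0.766 and 0.428 CPM at 10.5 dpp and 537, 297 and 659 CPM at 22.5 dpp (9.70 ± 0.43, edgeR adjusted p = 1.7e-06). Pdha1 fell (-1.14 ± 0.16, edgeR adjusted p = 0.00032) as Pdha2 rose. The ratio of Pdha2 to Pdha1 CPM was 0.159, 0.149 and 0.144 at 10.5 dpp and 14.7, 6.86 and 12.6 at 22.5 dpp, without overlap.

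The remaining pairs differed in size. Cstf2 fell (-0.99 ± 0.11, edgeR adjusted p = 0.00013) and Cstf2t, its partner in the processing of messenger RNA ends, rose (0.52 ± 0.11, edgeR adjusted p = 0.0028). Utp14a fell (-1.28 ± 0.15, edgeR adjusted p = 0.00013) and Utp14b rose (0.31 ± 0.11, edgeR adjusted p = 0.03), both for ribosome assembly. Rbmx (-1.28 ± 0.18, edgeR adjusted p = 0.00039) and Rbmxl2 (1.55 ± 0.17, edgeR adjusted p = 0.0001), Cox7b (-1.33 ± 0.16, edgeR adjusted p = 0.00017) and Cox7b2 (3.86 ± 0.22, edgeR adjusted p = 4.2e-06), and Timm8a1 (-1.43 ± 0.31, edgeR adjusted p = 0.0033) and Timm8a2 (2.01 ± 0.22, edgeR adjusted p = 0.0001) followed the same pattern. Chm fell (-1.50 ± 0.27, edgeR adjusted p = 0.0012), and its copy Chml was not called (-0.36 ± 0.21, edgeR adjusted p = 0.16), though it was without 22.5 dpp replicate 2 (-0.58) and with library size in place of TMM (-0.65). Utp14b was not called without 10.5 dpp replicate 1 (0.33), 10.5 dpp replicate 2 (0.28), 10.5 dpp replicate 3 (0.27) or 22.5 dpp replicate 1 (0.30), and with library size in place of TMM neither Utp14b (0.01) nor Cstf2t (0.21) was called. Pgk1 (-0.72 ± 0.20, edgeR adjusted p = 0.012) with Pgk2 (10.28 ± 0.55, edgeR adjusted p = 3e-06), and Rpl10 (-1.0 ± 0.19, edgeR adjusted p = 0.0018) with Rpl10l (2.99 ± 0.14, edgeR adjusted p = 1.7e-06), completed the list. Pgk1 and Rpl10 had only 2.52 to 3.26 and 6.50 to 7.51 CPM at 10.5 dpp, and genes with near-identical copies elsewhere in the genome can lose or share reads, so their levels are uncertain.

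**Figure D4:**
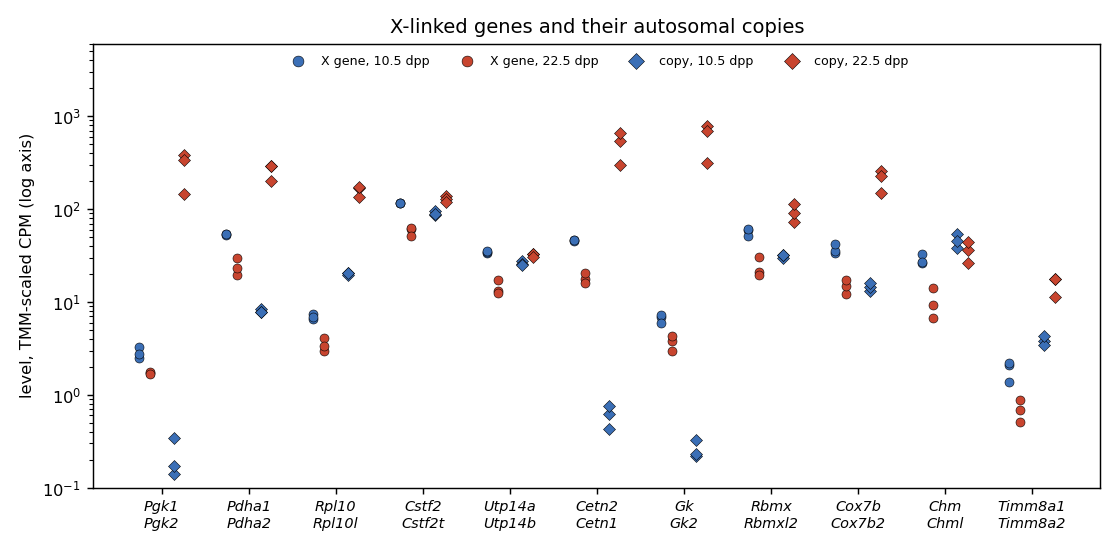
Level of 11 X-linked genes (circles) and their autosomal copies (diamonds) in the 6 libraries (TMM-scaled CPM, log axis), 10.5 dpp in blue and 22.5 dpp in red, 1 symbol per library. All 11 X-linked genes fall, and the copies rise by amounts that run from 0.31 (Utp14b) to 11.16 (Gk2) on the log2 scale, except Chml.

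Over the whole X chromosome, 466 of 697 genes tested (66.9%) fell and 113 (16.2%) rose, with a median log2 fold change of -0.95. With no filter 172 X-linked genes rose and with a minimum of 1 CPM in 3 libraries 67. On the 19 autosomes the share that fell ran from 33.0% to 40.4%, the share that rose from 34.0% to 43.2% and the median from -0.11 to 0.20. The share of a library's counts on X-linked genes was 3.82%, 3.78% and 3.72% at 10.5 dpp and 1.38%, 2.04% and 1.30% at 22.5 dpp. The groups did not overlap, and the exact two-sided permutation test gave p = 0.10, the smallest that 3 against 3 samples allow. Among X-linked genes with a mean of at least 10 CPM over the 6 libraries, 310 of 386 (80.3%) fell, against 39.0% of 10737 autosomal genes.

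At the study threshold 62 X-linked genes were higher (8.90%, against 16.3% of autosomal genes). Of these, 52 (83.9%) had a 10.5 dpp mean under 1 CPM, against 60.9% of the 2724 autosomal ones. They included Akap4 (above) and Tsga8, a spermatid gene, with 0.406, 0.222 and 0.461 CPM at 10.5 dpp and 52.6, 16 and 59.8 CPM at 22.5 dpp (6.83 ± 0.60, edgeR adjusted p = 3.2e-05). Fam47c had no count in the 10.5 dpp libraries and 10.9, 2.61 and 8.03 CPM at 22.5 dpp. Some were highest in replicate 2 of 22.5 dpp, among them Tsx, a testis gene near Xist, with 2.98, 3.76 and 2.93 CPM at 10.5 dpp and 60.7, 77.3 and 65.0 CPM at 22.5 dpp (4.40 ± 0.17, edgeR adjusted p = 1.3e-06), and the homeobox gene Rhox5 of Sertoli cells, with 0.345, 1.11 and 0.362 CPM at 10.5 dpp and 4.23, 5.66 and 4.47 CPM at 22.5 dpp (3.01 ± 0.46, edgeR adjusted p = 0.00054). Tsga8, Fam47c and Tsx were picked from the 62 after their values were seen.

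Of 9 Y-linked genes tested, 6 (66.7%) fell and 2 (22.2%) rose, against 37.3% and 37.8% of all genes tested. So few genes do not describe the whole chromosome. The fallers were the genes Kdm5d (-1.57 ± 0.21, edgeR adjusted p = 0.00031), Uba1y (-1.36 ± 0.15, edgeR adjusted p = 0.00012), Uty (-1.14 ± 0.23, edgeR adjusted p = 0.0021), Ddx3y (-0.88 ± 0.23, edgeR adjusted p = 0.0088), Eif2s3y (-0.83 ± 0.13, edgeR adjusted p = 0.00056) and Gm3376 (-1.72 ± 0.26, edgeR adjusted p = 0.00051). Zfy1 had 2.27, 1.93 and 1.79 CPM at 10.5 dpp and 5.32, 5.28 and 5.09 CPM at 22.5 dpp (1.39 ± 0.19, edgeR adjusted p = 0.00031) and Zfy2 had 2.45, 2.03 and 1.96 CPM at 10.5 dpp and 6.59, 6.84 and 4.36 CPM at 22.5 dpp (1.47 ± 0.24, edgeR adjusted p = 0.00074), zinc finger genes known to act in meiosis and in spermatids. Usp9y was not called (-0.40 ± 0.18, edgeR adjusted p = 0.074), though it was without 22.5 dpp replicate 2 (-0.50) and with library size in place of TMM (-0.70).

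**Figure D5:**
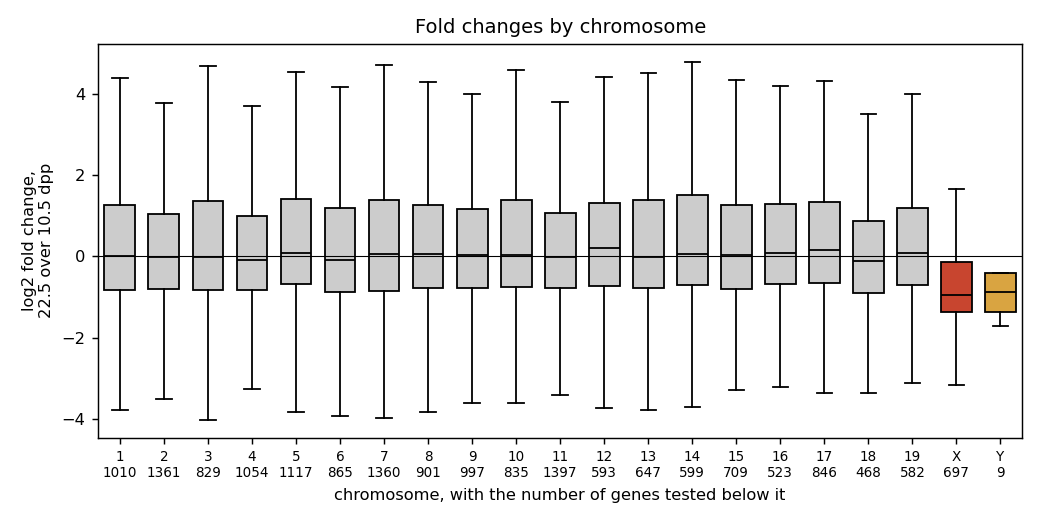
Log2 fold change of 22.5 over 10.5 dpp by chromosome, as boxes of the quartiles with the median and whiskers to the last gene within 1.5 times the box, outliers not drawn, and the number of genes tested below. The autosomal medians lie between -0.11 and 0.20, and those of X and Y lie at -0.95 (697 genes) and -0.88 (only 9 genes).

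Many of the genes that rose were long non-coding RNAs. Of 1107 tested (of 2576 in the table), 704 (63.6%) rose and 174 (15.7%) fell, against 36.0% and 38.9% of protein-coding genes. At the study threshold 497 (44.9%) were higher, against 2241 of 16128 protein-coding genes (13.9%), and 27 (2.44%) were lower, against 3.55%. The filter on low counts passes a rare transcript mainly through the group in which it is high, so these shares describe the genes that passed, and their difference was not tested.

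Of the 10 largest fitted rises among genes past the study threshold with at least 10 CPM at 22.5 dpp and no overlap, 6 were long non-coding RNAs, Gm31072, Gm14244, Gm16976, Gldnos, 4930478P22Rik and 1700026J12Rik. Gm31072 had no count at 10.5 dpp and 34.6, 14.5 and 38.2 CPM at 22.5 dpp, at least 474-fold higher than a floor of 3 counts per library. By the same floor Gldnos was at least 289-fold and 4930478P22Rik at least 277-fold higher. Gldnos is named for the strand opposite Gldn, and since the strand setting of the counting is not given in the sources used here, its reads and those of Gldn cannot be told apart. Gm14244 had 2 counts at 10.5 dpp against 187, 142 and 125 CPM at 22.5 dpp, a ratio of 11406 scaled for library size, with a 95% counting interval of 3157 to 94194. Its fitted log2 fold change of 13.19, which depends on the prior count, was 15.60 without 10.5 dpp replicate 1, the library with both counts, and 12.52 without replicate 3. These RNAs were lowest in replicate 2 of 22.5 dpp except for Gm14244. The protein-coding genes of this group were Slco6c1, a testis organic anion transporter, with 279.6, 124 and 220.1 CPM at 22.5 dpp from 4 counts in all at 10.5 dpp, Slc9c1, the sperm sodium/proton exchanger, with 226, 104 and 157 CPM from 4 counts, Gm4871, at least 338-fold higher, and the vomeronasal receptor gene Vmn1r181. Vmn1r181 had no count at 10.5 dpp and 12.3, 17.8 and 13.8 CPM at 22.5 dpp, at least 238-fold higher, and was highest in replicate 2.

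Most genes of most somatic lists fell in share. Of 27 Sertoli cell genes 21 (77.8%) fell and 2 (7.41%) rose, against 37.3% and 37.8% of all genes tested (median -0.96). Amh, the anti-Müllerian hormone of immature Sertoli cells, had 314, 329.6 and 351 CPM at 10.5 dpp and 30.4, 41.9 and 34.5 CPM at 22.5 dpp (-3.22 ± 0.15, edgeR adjusted p = 1.9e-06). Gdnf, the stem cell factor that they secrete, had 23.8, 19.4 and 23.9 CPM at 10.5 dpp and 2.18, 4.21 and 2.36 CPM at 22.5 dpp (-2.92 ± 0.28, edgeR adjusted p = 4.7e-05). Gata4 had 300.3, 272 and 315 CPM at 10.5 dpp and 63.2, 88.0 and 60.5 CPM at 22.5 dpp (-2.07 ± 0.17, edgeR adjusted p = 2.3e-05), and Dhh, the hedgehog signal to Leydig and myoid cells, 194, 168 and 181 CPM at 10.5 dpp and 37.8, 58.7 and 39.5 CPM at 22.5 dpp (-2.0 ± 0.19, edgeR adjusted p = 4.4e-05). Clu, the most abundant member, fell less, with 3202, 3463 and 3390 CPM at 10.5 dpp and 1547, 2308 and 2009 CPM at 22.5 dpp (-0.78 ± 0.16, edgeR adjusted p = 0.0026). Those that rose were Trf, transferrin, with 15.2, 18.8 and 19 CPM at 10.5 dpp and 64.6, 51.7 and 76.5 CPM at 22.5 dpp (1.86 ± 0.17, edgeR adjusted p = 4.5e-05), and Rhox5, whose log2 fold change was 3.73 without 10.5 dpp replicate 2. The remaining 4 were not called.

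Of 14 junction genes of the blood-testis barrier, which closes between Sertoli cells, 11 (78.6%) fell and 1 (7.14%) rose (median -1.11). Of all genes tested 37.3% fell and 37.8% rose. Ocln, occludin, had 88.7, 90.1 and 86.2 CPM at 10.5 dpp and 21.5, 30.8 and 18 CPM at 22.5 dpp (-1.91 ± 0.20, edgeR adjusted p = 7.1e-05), and F11r (-1.72 ± 0.13, edgeR adjusted p = 1.7e-05) and Nectin2 (-1.13 ± 0.12, edgeR adjusted p = 8.7e-05) fell as well. Cldn3, the claudin known to seal new barrier around advancing germ cells, rose, with 1.68, 1.83 and 1.98 CPM at 10.5 dpp and 3.30, 4.23 and 4.25 CPM at 22.5 dpp (1.10 ± 0.21, edgeR adjusted p = 0.0016). Cldn11, the main Sertoli claudin, which was in the Sertoli list, fell (-0.88 ± 0.17, edgeR adjusted p = 0.0019).

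Of 16 Leydig cell genes, 5 (31.2%) rose and 7 (43.8%) fell, against 37.8% and 37.3% of all genes tested (median -0.06). Hsd3b6, the 3-beta-hydroxysteroid dehydrogenase of adult Leydig cells, had 0.548, 1.31 and 0.609 CPM at 10.5 dpp and 131, 156 and 142 CPM at 22.5 dpp (7.48 ± 0.32, edgeR adjusted p = 1.6e-06), whereas Hsd3b1, also present in fetal Leydig cells, had 328, 383 and 322 CPM at 10.5 dpp and 198, 244 and 210.4 CPM at 22.5 dpp (-0.66 ± 0.13, edgeR adjusted p = 0.0021). Thbs2, known from fetal Leydig cells, fell from 99.1, 96.9 and 102 CPM to 4.79, 8.96 and 5.05 CPM (-3.97 ± 0.25, edgeR adjusted p = 6.6e-06). Hsd17b3, which makes testosterone, fell as well, with 61.6, 45.7 and 61.7 CPM at 10.5 dpp and 12.9, 13.4 and 11.7 CPM at 22.5 dpp (-2.15 ± 0.16, edgeR adjusted p = 1.2e-05). Cyp11a1 (0.81 ± 0.18, edgeR adjusted p = 0.0033), which starts steroid synthesis, Lhcgr (0.90 ± 0.14, edgeR adjusted p = 0.00065), the receptor for luteinizing hormone, and Srd5a1 (1.06 ± 0.19, edgeR adjusted p = 0.0012) rose. Insl3 rose (1.81 ± 0.51, edgeR adjusted p = 0.012) but was uneven at 22.5 dpp, with 6.93, 20.9 and 37.1 CPM, replicate 1 being near the 10.5 dpp values of 6.07, 5.96 and 6.49 CPM. Without 22.5 dpp replicate 3, its log2 fold change was 1.18. Nr5a1 (-1.37 ± 0.13, edgeR adjusted p = 4e-05) and Akr1c14 (-1.21 ± 0.15, edgeR adjusted p = 0.00019) fell, while Star (-0.01 ± 0.23, edgeR adjusted p = 0.97) and Cyp17a1 (0.15 ± 0.17, edgeR adjusted p = 0.45) were not called, although Cyp17a1 was without 22.5 dpp replicate 2 (0.27).

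Of 12 peritubular myoid genes 10 (83.3%) fell and 1 (8.33%) rose, against 37.3% and 37.8% of all genes tested (median -0.76). Acta2, smooth muscle actin, had 502, 561 and 541 CPM at 10.5 dpp and 205, 267 and 240.3 CPM at 22.5 dpp (-1.17 ± 0.13, edgeR adjusted p = 0.00012), and Myl9 (-1.16 ± 0.15, edgeR adjusted p = 0.0002), Smtn (-0.77 ± 0.14, edgeR adjusted p = 0.0016) and Mylk (-0.80 ± 0.15, edgeR adjusted p = 0.0018) fell with it. Actg2 rose (0.82 ± 0.32, edgeR adjusted p = 0.044) with overlapping groups, and the call was lost when any library but 22.5 dpp replicate 2 was left out (0.63 to 0.95) or with library size in place of TMM (0.48). Of 12 endothelial genes 10 (83.3%) fell and 0 rose (median -0.96), against the same shares of all genes. Those that fell included Cdh5 (-2.30 ± 0.17, edgeR adjusted p = 1.5e-05), Pecam1 (-1.56 ± 0.19, edgeR adjusted p = 0.00019), Esam (-1.16 ± 0.16, edgeR adjusted p = 0.00034) and Eng (-1.03 ± 0.15, edgeR adjusted p = 0.00043). Cdh5, the cadherin of vessels, had 99.3, 96.8 and 102 CPM at 10.5 dpp and 17.3, 25.7 and 17.6 CPM at 22.5 dpp.

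Matrix genes fell in 17 of 18 cases (94.4%, against 37.3% of all genes tested), 5 past the study threshold (median -1.74). Col6a2 had 424, 413 and 443 CPM at 10.5 dpp and 68.5, 97.8 and 72.1 CPM at 22.5 dpp (-2.42 ± 0.16, edgeR adjusted p = 8.4e-06), and Col6a1 (-1.96 ± 0.14, edgeR adjusted p = 1.4e-05), Col5a2 (-2.19 ± 0.15, edgeR adjusted p = 9.7e-06) and Col1a2 (-1.59 ± 0.15, edgeR adjusted p = 4.5e-05) fell by like amounts. Sparc, a matrix glycoprotein and among the genes with most counts at 10.5 dpp, had 2903, 2919 and 2909 CPM at 10.5 dpp and 1391, 1829 and 1503 CPM at 22.5 dpp (-0.89 ± 0.13, edgeR adjusted p = 0.0005). Postn was not called (0.10 ± 0.16, edgeR adjusted p = 0.58).

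Imprinted growth genes had the lowest median of the lists, -2.43, with 11 of 12 falling, 8 past the study threshold. Dlk1, a Notch ligand relative of fetal tissues, had 42.0, 50.3 and 46.3 CPM at 10.5 dpp and 0.746, 1.16 and 0.763 CPM at 22.5 dpp (-5.66 ± 0.21, edgeR adjusted p = 1.3e-06). H19, the non-coding partner of Igf2, had 431, 489.6 and 401 CPM at 10.5 dpp and 5.54, 15.6 and 7.41 CPM at 22.5 dpp (-5.52 ± 0.40, edgeR adjusted p = 1.3e-05), and Igf2 itself fell as well (-3.21 ± 0.35, edgeR adjusted p = 0.0001). Mest (-3.65 ± 0.21, edgeR adjusted p = 3.8e-06) and Ndn (-2.20 ± 0.18, edgeR adjusted p = 2.3e-05) fell, and Peg10 was not called (0.07 ± 0.20, edgeR adjusted p = 0.76). Zim1, an imprinted zinc finger gene outside the list, had 102, 87.3 and 97.1 CPM at 10.5 dpp and 1.15, 2.56 and 1.02 CPM at 22.5 dpp (-5.87 ± 0.34, edgeR adjusted p = 4.1e-06). In Dlk1, H19, Mest, Ndn and Zim1 the groups were far apart and replicate 2 was the highest at 22.5 dpp. Without it the falls were larger, at -6.13 for H19 and -6.49 for Zim1.

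Dlk1, H19 and Zim1 were also among the 10 largest falls of genes past the study threshold with at least 10 CPM at 10.5 dpp. Sel1l3 fell furthest, from 142, 141 and 158 CPM to 1.24, 1.89 and 1.24 CPM (-6.63 ± 0.20, edgeR adjusted p = 9.9e-07). The others were Cadm3 (-5.63 ± 0.36, edgeR adjusted p = 7e-06), Rgs17 (-5.15 ± 0.33, edgeR adjusted p = 7.4e-06), Otof (-5.09 ± 0.54, edgeR adjusted p = 8.3e-05), Trpm5 (-4.91 ± 0.31, edgeR adjusted p = 6.7e-06), BC034090 (-4.86 ± 0.25, edgeR adjusted p = 2.7e-06) and Hsd17b1 (-4.74 ± 0.21, edgeR adjusted p = 1.7e-06). Without 22.5 dpp replicate 2, Cadm3 and Otof were both at -6.30. Hsd17b1, the reductase that fetal Sertoli cells use to make testosterone, had 15.3, 15.1 and 18.1 CPM at 10.5 dpp and 0.498, 0.646 and 0.654 CPM at 22.5 dpp.

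Retinoic acid, made in the testis from vitamin A, starts the differentiation of spermatogonia. Of 17 genes of this pathway 10 (58.8%) fell and 3 (17.6%) rose, against 37.3% and 37.8% of all genes tested (median -0.84). Among the enzymes, Aldh1a2, which makes retinoic acid in germ cells, rose from 112, 128 and 109 CPM to 242, 170.4 and 251 CPM (0.92 ± 0.17, edgeR adjusted p = 0.0013), and Lrat, which stores retinol as esters, rose from 1.40, 1.98 and 1.33 CPM to 17.4, 13.8 and 19.3 CPM (3.43 ± 0.24, edgeR adjusted p = 9.8e-06). Of the enzymes that break retinoic acid down, Cyp26b1 fell (-1.07 ± 0.21, edgeR adjusted p = 0.0018) and Cyp26c1, at under 1 CPM, rose (1.05 ± 0.29, edgeR adjusted p = 0.011). The Cyp26c1 call was lost without 10.5 dpp replicate 1 (1.01) or replicate 3 (0.98) and with library size in place of TMM (0.76) or DESeq2 (1.10). The receptors Rara (-1.28 ± 0.14, edgeR adjusted p = 0.0001) and Rarg (-1.17 ± 0.12, edgeR adjusted p = 6.1e-05), the retinol importer Stra6 (-1.76 ± 0.12, edgeR adjusted p = 1.1e-05) and the binding protein Crabp1 (-2.15 ± 0.18, edgeR adjusted p = 2.3e-05) fell.

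Macrophage genes rose in 12 of 12 cases, against 37.8% of all genes tested, 1 past the study threshold (median 1.01). Their summed level was 203 to 271 CPM at 10.5 dpp and 467 to 547 CPM at 22.5 dpp, and its part in the other results was not tested. Lyz2, lysozyme, had 34.7, 52.0 and 35.2 CPM at 10.5 dpp and 116, 129 and 125 CPM at 22.5 dpp (1.60 ± 0.18, edgeR adjusted p = 9.8e-05), and F13a1 had 31.1, 43.2 and 30.4 CPM at 10.5 dpp and 72.1, 77.1 and 71.0 CPM at 22.5 dpp (1.07 ± 0.16, edgeR adjusted p = 0.00043). Csf1r, the receptor that sustains macrophages, had 22.3, 27.5 and 21.6 CPM at 10.5 dpp and 40.0, 46.6 and 42.7 CPM at 22.5 dpp (0.86 ± 0.14, edgeR adjusted p = 0.00066), and C1qb rose as well (1.17 ± 0.19, edgeR adjusted p = 0.00072). The largest rise, that of Aif1 (2.78 ± 0.45, edgeR adjusted p = 0.00078), was uneven, with 24.6, 7.91 and 30.1 CPM at 22.5 dpp, lowest in replicate 2, where most members were highest.

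Markers of other tissues and of blood were mixed. Of 6 adipocyte genes 3 were tested, with Adipoq (3.59 ± 0.64, edgeR adjusted p = 0.0012), Plin1 (-0.68 ± 0.14, edgeR adjusted p = 0.0026) and Fabp4 (-1.12 ± 0.38, edgeR adjusted p = 0.028) called in unlike directions. Adipoq reached at most 1.24 CPM, whereas Plin1 had 21.2, 25.5 and 21.7 CPM at 10.5 dpp and 13.2, 15.6 and 13.9 CPM at 22.5 dpp. Of 7 epididymis genes 2 were tested, and Rnase10 rose from 1 count in all to 12.3, 6.73 and 11.3 CPM, while Crisp1, Lcn5, Lcn8, Lcn9 and Adam7, which define that tissue, did not pass the filter. Of 8 lymphocyte genes 5 were tested, of which 2 were higher, among them Cd3d (4.50 ± 0.84, edgeR adjusted p = 0.0016), and 2 lower, Cd3e (-1.24 ± 0.37, edgeR adjusted p = 0.015) and Cd79a (-1.16 ± 0.35, edgeR adjusted p = 0.016). These made 40.0% each way, near the 37.8% and 37.3% of all genes tested. The call of Fabp4 was lost without 10.5 dpp replicate 1 (-1.12), 10.5 dpp replicate 3 (-0.94) or 22.5 dpp replicate 3 (-0.93) and with DESeq2 (-1.07). That of Cd3e was lost without any of the 10.5 dpp libraries (-1.30 to -1.25) or 22.5 dpp replicate 1 (-1.01), and that of Cd79a without 10.5 dpp replicate 3 (-1.04) or 22.5 dpp replicate 1 (-1.05), and with DESeq2 neither Cd3e (-1.23) nor Cd79a (-1.10) was called. Without 10.5 dpp replicate 1, Cd3d had a log2 fold change of 5.26. Of 5 mesothelial genes 2 were tested, and Lrrn4 rose (1.73 ± 0.25, edgeR adjusted p = 0.00041). Of 7 erythroid genes 4 were tested, of which the globin genes Hbb-bt (-1.54 ± 0.17, edgeR adjusted p = 0.0001) and Hba-a1 (-1.25 ± 0.30, edgeR adjusted p = 0.0055), which have near-identical copies, fell, Hba-a1 from 30.5, 35.5 and 32.8 CPM to 9.58, 10.5 and 21.6 CPM.

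The genes with the largest changes of mean CPM were mostly those of the lists above. Beside Ldhc, Dnah8, Slc2a3, Rsph1 and Hspa2, the 10 largest gains included those of Fhl4 (9.35 ± 0.43, edgeR adjusted p = 1.7e-06), Phf7 (6.18 ± 0.30, edgeR adjusted p = 2.1e-06), the lipid flippase Atp8b3 (8.90 ± 0.36, edgeR adjusted p = 1.4e-06) and the testis tubulin Tuba3b (2.93 ± 0.26, edgeR adjusted p = 3.4e-05). Phf7 had 28.3, 28.6 and 29.2 CPM at 10.5 dpp and 2558, 1282 and 2409 CPM at 22.5 dpp. Beside Clu, Sparc, Col1a2 and Col3a1 (-1.30 ± 0.14, edgeR adjusted p = 9.7e-05), the 10 largest losses were those of the X-linked Maged1 (-1.70 ± 0.18, edgeR adjusted p = 8.4e-05), the chaperone Hsp90ab1 (-1.14 ± 0.13, edgeR adjusted p = 0.00014), the protease Ctsl (-0.96 ± 0.15, edgeR adjusted p = 0.00067), Nedd4 (-1.65 ± 0.19, edgeR adjusted p = 0.00013) and the mitochondrial genes ND1 (-0.77 ± 0.25, edgeR adjusted p = 0.022) and COX1 (-0.46 ± 0.28, edgeR adjusted p = 0.17). COX1 was not called and its groups overlapped, with 3107, 3220 and 2701 CPM at 10.5 dpp and 2298, 2999 and 1258 CPM at 22.5 dpp. ND1 was not called without 10.5 dpp replicate 1 (-0.64) or 22.5 dpp replicate 1 (-0.78), and COX1 was called without 22.5 dpp replicate 2 (-0.79) and with library size in place of TMM (-0.74). All 13 mitochondrial genes together held 1.40%, 1.33% and 1.08% of counts at 10.5 dpp and 0.648%, 1.02% and 0.408% at 22.5 dpp. The 100 genes with the most counts held 10.5%, 10.7% and 10.5% of all counts at 10.5 dpp and 12.0%, 10.4% and 11.9% at 22.5 dpp, groups that overlapped (exact two-sided permutation p = 0.40, smallest possible 0.10). The difference of the mean shares was 0.896 percentage points, and it turned to -0.222 when the 10 genes with the most counts were taken in place of 100.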

How the data were processed

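Poly(A) RNA of 3 fresh testis samples at 10.5 dpp and 3 at 22.5 dpp was sequenced by the study as stranded single-end reads of 50 bases. The authors deposited raw counts per gene, 1 column per sample, for 27466 Entrez gene IDs on GRCm38, made with bcl2fastq 2.17.1.14, STAR 2.7.3a and HTSeq 0.12.4 per the submitters' processing notes. The strand setting of the counting is not given in the sources used here. Of 23 columns, 1 was identical to another, so that 22 libraries differed, and no column lacked a sample. Gene IDs were named from RefSeq (27373 matched).

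The 6 libraries, of 31634658 to 54986423 counts, were fitted alone with edgeR 4.0.16 in R 4.3.3 (filterByExpr, TMM factors, quasi-likelihood F test, Benjamini-Hochberg adjustment), which left 17425 genes. The study threshold (log2 fold change of at least 2 in size, adjusted p of at most 0.001) follows the study's methods, which used DESeq2; here DESeq2 1.42.0 was an alternative. On data simulated for this comparison over 17425 genes, edgeR recovered 97.5% of 200 genes changed 8-fold and called 17 unchanged ones. Few genes changed there, equally up and down, whereas 75.1% of the genes tested were called in the data. The simulation therefore cannot show how well the scaling holds in the data. Shares of counts were compared by an exact permutation test. Counting intervals and floors cover counting error only.

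Genes named in the text were the 10 largest rises and falls past the study threshold without overlap and with at least 10 CPM in the higher group, the 10 largest gains and losses of mean CPM, the stage and pair genes, and up to 4 members per list and direction by smallest p, with members against a list's majority. A few genes that this rule names are not reported here. The members and lists were chosen with earlier results of these data known. Alternatives were DESeq2, RLE factors, library size only, no filter, at least 1 CPM in 3 libraries, a fit with all libraries but 6.5 dpp replicate 1, a replicate block and leaving out each library.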

Additional observations from a re-analysis of the deposited data

How the results depend on the processing

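The counts of genes called over all genes kept within 1.5 times of those reported except for the genes lower at the study threshold, 602, which were 1069 with scaling by library size only and ran from 352 (without 22.5 dpp replicate 1) to 989 (without 22.5 dpp replicate 2), with 393 without 10.5 dpp replicate 3. The genes higher at the study threshold ran from 1959 to 3474 when single libraries were left out, and the X-linked genes that fell from 428 to 511. The X-linked genes that rose, 113, were 172 with no filter and 67 with the 1 CPM minimum, settings that change which genes are tested. Of the 2789 genes higher and 602 lower, 2775 and 588 were still past the study threshold without 22.5 dpp replicate 2. DESeq2, which tested 22629 genes, gave 3305 higher and 558 lower. The share on the genes with most counts differed by 0.896 percentage points between the groups for 100 genes, by -0.222 for 10 genes and by 3.52 for 1000 genes, and by 0.606 to 1.43 when single libraries were left out, where the number of genes summed and the libraries used are what differed.

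Replicate numbers recur in both groups. Same-numbered libraries deviated together at correlations of 0.0117, 0.0608 and 0.125, not every library correlated best with its own number, and the labels do not say that a number marks a shared animal, so the numbers were not taken as pairs. With a replicate block 2860 genes were higher and 614 lower at the study threshold, 6442 rose and 6364 fell, and 472 X-linked genes fell. Among the genes named, Actg2 (0.76) and Utp14b (0.31) were then not called, and COX1 (-0.54) was.

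Among the genes named, values that were not called changed sign for Cyp17a1 (-0.17), Peg10 (-0.21), Postn (-0.21), Prdm9 (-0.13), Slc25a31 (-0.03) and Tssk6 (-0.07) with library size only, and for Star with DESeq2 (0.05), RLE factors (0.07) and the 1 CPM minimum (0.03). When single libraries were left out, Peg10 ran from -0.23 to 0.21, Postn from -0.04 to 0.18 and Star from -0.18 to 0.19. Of the adipocyte genes 1 in place of 2 was lower with DESeq2 (1), without 10.5 dpp replicate 1 (1) and without 10.5 dpp replicate 3 (1), which left as many higher as lower. In the fit of all libraries but 6.5 dpp replicate 1, Actg2, Ccnb1, Ccne2, Cd79a, Cox7b, Eif2s3y, Gins2, Hba-a1, Hbb-bt, Ift20, Lhcgr, Mcm7, Mei1, Pcna, Pgk1, Taf7, Top2a, Tpi1 and Utp14b kept their direction but were not called. The cause of these changes was not tested. Genes with 0 to 3 counts at 10.5 dpp are limited by depth.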
